A study of Mus musculus with 9 samples.

Results

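Interferon-stimulated genes were measured in whole liver of male C57/BL6 mice aged 8 to 9 weeks, in 3 genotypes of 3 arrays each. The set was a list of 41 gene symbols, each represented by the brightest probe set annotated to that symbol alone. Of the 41 genes, 35 had such a probe set, among 19938 genes so represented on the array. Another 5 genes, Isg15, Ifi47, Gbp2, Gbp6 and Igtp, shared every probe set with other genes and are described separately, and Ifi44 had no probe set in the annotation used here.

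The labelled double knockout came from crossing mice with a hepatocyte-specific deletion of NEMO to mice lacking p21 constitutively. The NEMO knockout carried the hepatocyte deletion alone, and the third genotype was wild type. All mice ate standard chow. The labels name neither the promoter that drove the hepatocyte deletion nor whether wild type mice carried its unrecombined alleles, and there was no group lacking p21 alone. Ikbkg encodes NEMO, the scaffold of the kinase complex that activates canonical NF-κB signalling, and Cdkn1a encodes p21, an inhibitor of cyclin-dependent kinases.

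Interferons are secreted proteins that act through cell-surface receptors, Janus kinases and STAT transcription factors. Type I interferon signalling joins STAT proteins with Irf9 into a complex that binds the interferon-stimulated response element, whereas interferon gamma acts mainly through STAT dimers on the gamma-activated site and through Irf1. The genes switched on in this way include sensors of foreign nucleic acid, antiviral effectors, large GTPases and subunits of the immunoproteasome, and many of them feed back on the pathway. In liver, hepatocytes, Kupffer cells and other immune cells can all express them.

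The 9 arrays had median log2 values between 6.47 and 6.58 over 28939 probe sets. The medians were 6.53 to 6.55 in the labelled double knockout, 6.52 to 6.58 in the NEMO knockout and 6.47 to 6.48 in wild type. Both knockouts thus lay above wild type in this median. Pairs of arrays correlated at 0.994 to 0.996 within groups and 0.986 to 0.995 between groups (Pearson's r across probe sets). Values are given below as log2 values of replicates 1, 2 and 3, differences on the log2 scale ± SE, and group means ± SD (n = 3). Ikbkg measured 8.10, 8.26 and 8.45 in the labelled double knockout, 8.23, 8.48 and 8.35 in the NEMO knockout and 8.73, 8.89 and 8.98 in wild type. It was called lower in the NEMO knockout than in wild type, with a difference of -0.52 ± 0.11 (adjusted p = 0.0184), and its values in both knockouts lay below every wild type value. The probe set annotated to Cdkn1a and to a second transcript measured 11.14, 10.14 and 11.06 in the labelled double knockout, 9.76, 10.70 and 9.83 in the NEMO knockout and 8.54, 9.64 and 7.83 in wild type. The signal of that probe set was therefore not low on the arrays labelled as lacking p21, where it was called higher than in wild type (2.11 ± 0.45, adjusted p = 0.0194). How much of it came from either transcript, and whether the probes lie in the deleted part, was not analysed here, and the group is called the labelled double knockout throughout. Each array carried its own identifier in the labels, which do not describe the animals further, so p-values measure the spread between these samples.

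The first comparison, of the NEMO knockout with wild type, asked how the liver transcriptome differed without NEMO in hepatocytes. Interferon-stimulated genes were higher in the NEMO knockout: 16 of 35 members (45.7%) were called higher, against 5.66% of all probe sets tested, and 0 members were called lower, against 2.02% of all probe sets. A gene was called when its adjusted p was under 0.05 in limma's moderated test on log2 values, with the Benjamini-Hochberg adjustment over all 28939 probe sets. Usp18, Xaf1, Zbp1, Oasl2 and Gbp3 were the 5 members called with at least a doubling of signal, at 2.54, 2.33, 2.29, 2.12 and 2.05 times the wild type level. The members' median log2 difference was 0.52 (range 0.00 to 1.34), where the median of all probe sets was -0.04 and 90% of them lay between -0.30 and 0.51. In 23 of 35 members (65.7%) all 3 NEMO knockout values lay above all 3 wild type values, against 11.4% of all probe sets. In whole liver, more cells of a type and more RNA per cell cannot be told apart. Under 18 alternative processing settings, among them leaving out each array in turn, 13 to 17 members were called higher, and 11 of the 16 were called under each of them. Unadjusted, 24 members were higher at p under 0.05, against 10.5% of all probe sets, and 0 were lower, against 9.78% (limma).

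**Figure D1:**
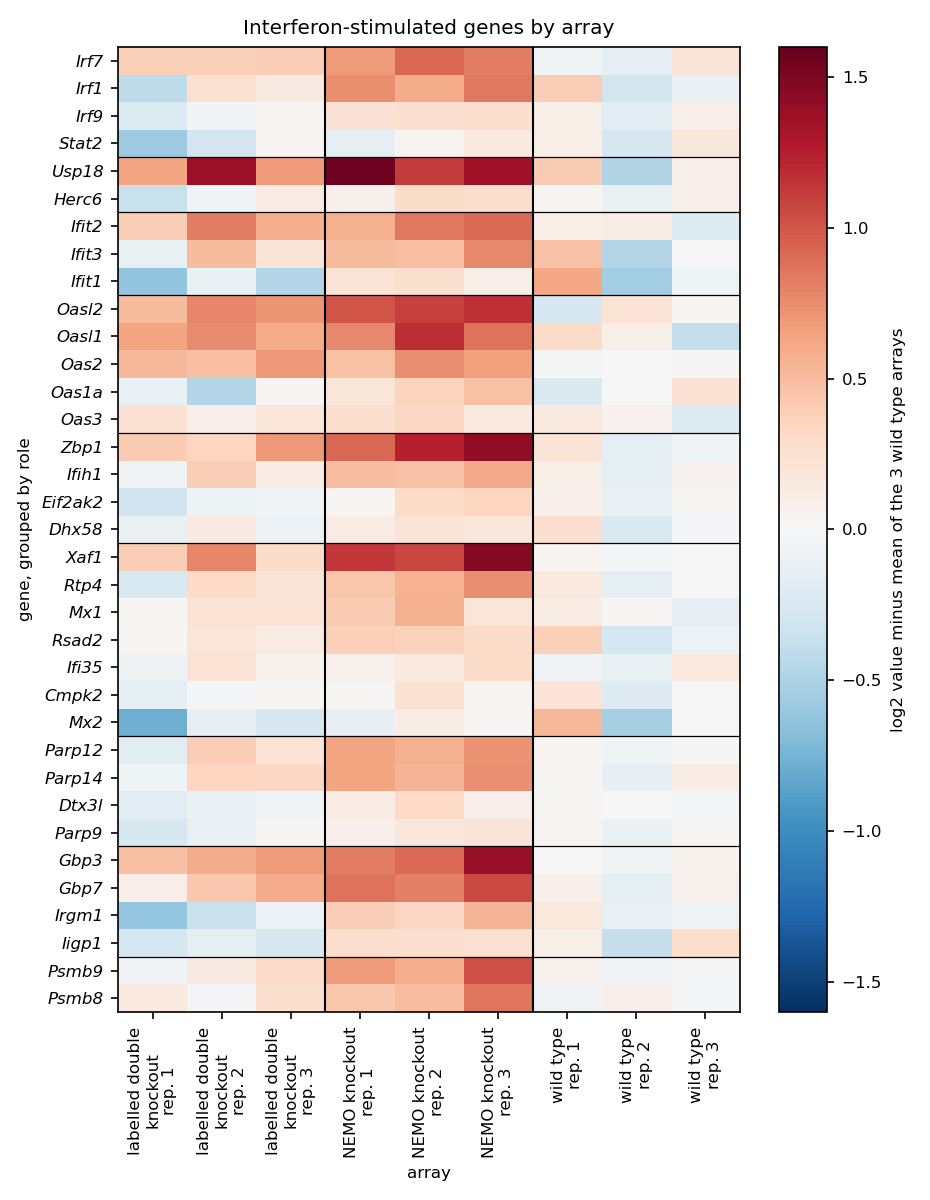
Heat map of the 35 members (rows, grouped by role) on the 9 arrays (columns), coloured by the log2 value minus the mean of the 3 wild type arrays of that gene. The NEMO knockout columns are the most red, and the labelled double knockout columns are paler, with the replicate 1 column lowest of its group for 27 of 35 members.

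The second comparison, of the labelled double knockout with the NEMO knockout, asked what the added loss of p21 did. No member was called in either direction in that comparison (0 higher, against 0.0864% of all probe sets, and 0 lower, against 0.111%). All 35 log2 differences were nevertheless below 0, where 48.6% of all probe sets were, and their median was -0.39 (range -0.78 to -0.06) against 0.00 over all probe sets. At an unadjusted p under 0.05, 22 of 35 members were lower in the labelled double knockout, against 3.99% of all probe sets, and 0 were higher, against 3.47% (limma). All 3 labelled double knockout values lay below all 3 NEMO knockout values in 23 of 35 members (65.7%), against 5.75% of all probe sets. The lowest adjusted p was that of Irgm1, an immunity-related GTPase, at 0.0767. Both comparisons share the 3 NEMO knockout arrays, so a high value on those arrays raises a difference from wild type and lowers a difference of the labelled double knockout at once, and the 2 sets of differences are not independent.

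Set against wild type directly, the labelled double knockout had 6 of 35 members (17.1%) called higher, Ifit2, Oasl1, Oasl2, Oas2, Irf7 and Gbp3, against 5.81% of all probe sets, and 0 called lower, against 3.51%. Unadjusted, 10 members were higher at p under 0.05, against 10.2% of all probe sets, and 1, Irgm1, was lower, against 10.8% (limma). The median difference was 0.13 (range -0.40 to 0.90), with 21 members above 0 and 14 below, where the median of all probe sets was -0.03. All 3 labelled double knockout values lay above all 3 wild type values in 10 members (28.6%), against 11.6% of all probe sets, and below them in 1 member, Dtx3l (2.86%), against 13.5% of all probe sets. The group means ran from the NEMO knockout through the labelled double knockout to wild type in 21 members. In the other 14, among them Ifit1, Irf1, Irgm1 and Iigp1, wild type stood between the 2 knockouts. The shares of all probe sets with these orders were not counted. The count of 6 fell to 2 without replicate 2 or replicate 3 of the labelled double knockout and to 3 without replicate 2 or replicate 3 of wild type, and Oasl2 and Oas2 were called in each of the 18 alternatives. The call was lost in 3 of them for Ifit2, in 5 for Gbp3 and in 9 each for Irf7 and Oasl1.

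**Figure D2:**
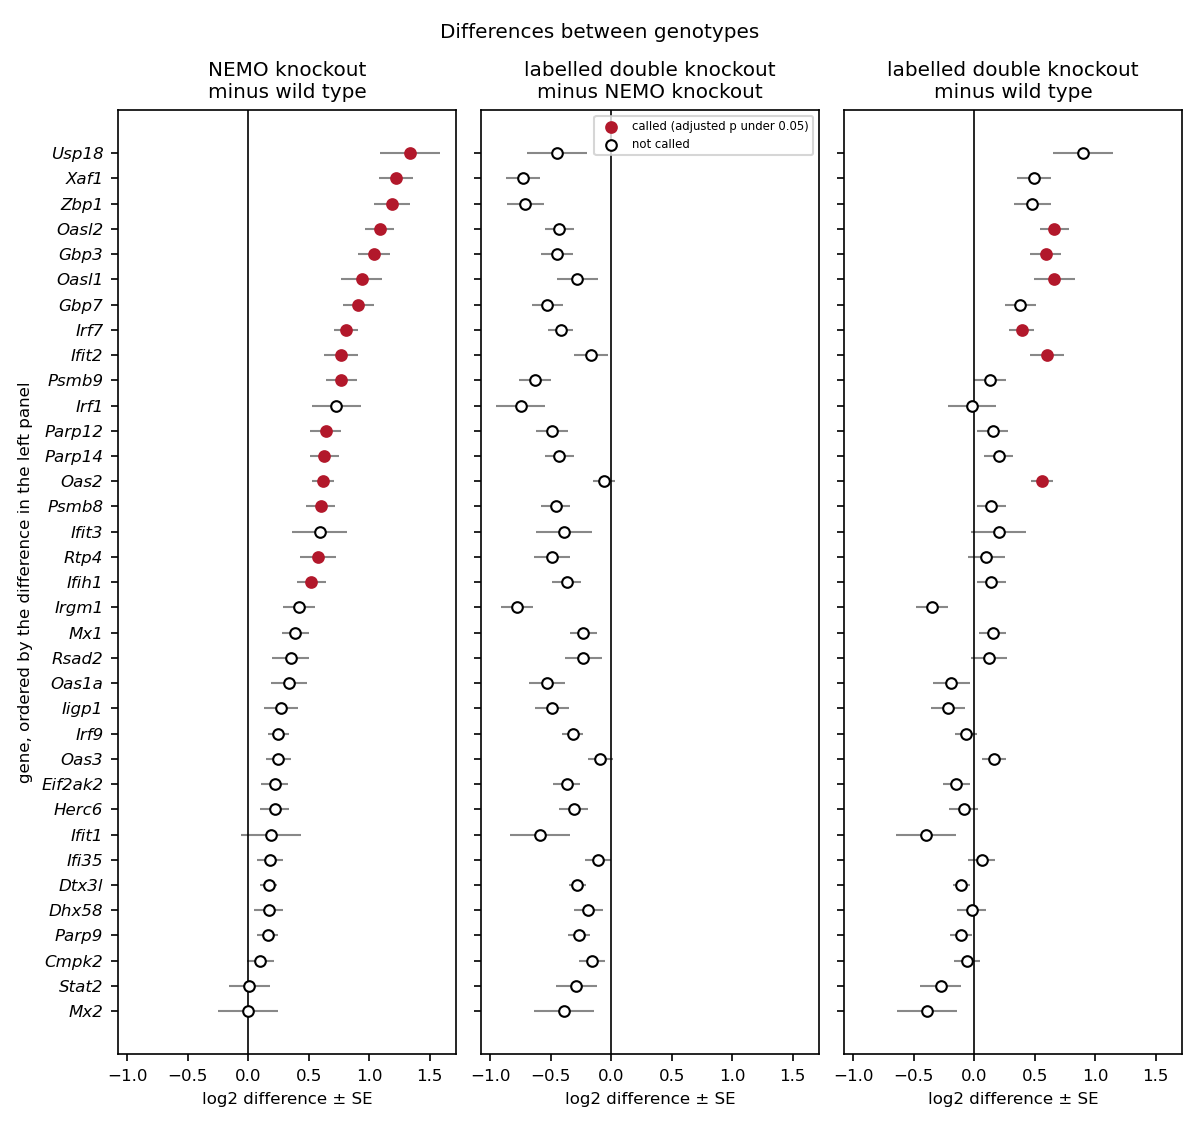
Log2 differences (points) with their standard errors (bars) for the 35 members in 3 comparisons, ordered by the difference of the NEMO knockout from wild type, with called members filled. In the left panel the points lie between 0.00 and 1.34 and 16 are filled, in the middle panel all lie below 0 and none is filled, and in the right panel they spread from -0.40 to 0.90 with 6 filled.

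The promoters of the members were searched for the elements through which interferon signalling acts. RefSeq promoter windows on GRCm38.p6, each running from 250 bases before to 50 bases after an annotated gene start, were at hand for 25 of the 35 members. The core of the interferon-stimulated response element, GAAANNGAA, stood on either strand in the windows of 11 of 25 members (44%), against 2638 of 27025 genes (9.76%) in the promoter table. The gamma-activated site, TTCNNNGAA, stood in those of 7 of 25 members (28%), against 2582 of 27025 genes (9.55%). The core of the response element was in 3 of the 11 members called higher in the NEMO knockout (27.3%) and in 8 of the 14 not called (57.1%). A match describes the letters in the window and says nothing of binding.

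Stretches around the matches are shown for the 3 called members that had a core of the response element, in order of their difference from wild type. The stretches are those of Gbp3 at chr3:142559975-142560039 on the plus strand, Gbp7 at chr3:142530259-142530317 on the plus strand and Ifih1 at chr2:62646206-62646392 on the minus strand, each read 5′ to 3′ along the gene. Capitals mark the letters of the matches, which read TTCNNTTTC where the match is on the opposite strand; overlapping matches form 1 run.
Gbp3: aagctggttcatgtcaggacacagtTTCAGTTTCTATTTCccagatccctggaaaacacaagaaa
Gbp7: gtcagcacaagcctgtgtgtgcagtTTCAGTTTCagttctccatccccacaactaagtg
Ifih1: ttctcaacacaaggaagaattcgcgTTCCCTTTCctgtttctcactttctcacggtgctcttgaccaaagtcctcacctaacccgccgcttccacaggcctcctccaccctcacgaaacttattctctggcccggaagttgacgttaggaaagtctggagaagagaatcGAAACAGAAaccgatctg
The 2 matches of Gbp3 began 44 and 38 bases before the annotated start, and the match of Gbp7 began 52 bases before it. Those of Ifih1 lay on either side of the start, from 112 bases before it to 32 bases after it.

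A further 4 stretches were chosen after the values were seen, from members not called against wild type: Irgm1 for its difference between the knockouts, Ifit3 and Ifit1 for the number of their matches, and Irf1 for its gamma-activated site. They lie at chr11:48871411-48871475 on the minus strand, chr19:34583349-34583460 and chr19:34640755-34640838 on the plus strand, and chr11:53769899-53769957 on the plus strand. Capitals mark matches as before, and in Irf1 they mark the gamma-activated site.
Irgm1: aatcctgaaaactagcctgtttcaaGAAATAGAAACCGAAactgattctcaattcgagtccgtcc
Ifit3: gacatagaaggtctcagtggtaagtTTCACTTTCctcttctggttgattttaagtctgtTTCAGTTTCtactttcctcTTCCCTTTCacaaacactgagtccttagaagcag
Ifit1: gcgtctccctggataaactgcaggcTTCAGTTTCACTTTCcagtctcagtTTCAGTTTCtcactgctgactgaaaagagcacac
Irf1: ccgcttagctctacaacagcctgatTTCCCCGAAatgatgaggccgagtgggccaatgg
Ifit3 and Ifit1 held 3 cores of the response element each, and Irgm1 held 2. Ifit1, with 3 matches, differed by 0.19 between the NEMO knockout and wild type, and Gbp7, with 1, by 0.91.

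Among transcription factors and signal transducers, 1 of 4 members was called higher in the NEMO knockout. Irf7, which drives transcription of type I interferon genes and of many targets of interferon, measured 8.67, 8.66 and 8.68 in the labelled double knockout, 8.97, 9.20 and 9.10 in the NEMO knockout and 8.23, 8.13 and 8.49 in wild type. The 3 groups did not overlap, with the NEMO knockout highest and wild type lowest. The difference of the NEMO knockout from wild type was 0.81 ± 0.10 (adjusted p = 0.0013), that of the labelled double knockout from the NEMO knockout was -0.42 ± 0.10 (adjusted p = 0.208), and that of the labelled double knockout from wild type was 0.39 ± 0.10 (adjusted p = 0.0385).

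Irf1, a factor induced by interferon gamma that activates antigen processing genes, measured 7.79, 8.44 and 8.34 in the labelled double knockout, 8.95, 8.80 and 9.05 in the NEMO knockout and 8.59, 7.91 and 8.10 in wild type. Its NEMO knockout values lay above all others, while the other groups overlapped each other and were widely spread. It missed the threshold in these comparisons, with a difference of 0.73 ± 0.20 (adjusted p = 0.0599) for the NEMO knockout from wild type and -0.75 ± 0.20 (adjusted p = 0.311) for the labelled double knockout from the NEMO knockout. A second, dimmer probe set annotated to Irf1 differed by 0.03 ± 0.11 and -0.04 ± 0.11 in the same comparisons, so the 2 probe sets of the gene disagreed. Irf9, the DNA-binding part of the type I complex, averaged 8.80 ± 0.13 in the labelled double knockout, 9.11 ± 0.02 in the NEMO knockout and 8.86 ± 0.15 in wild type, and Stat2, its partner, 9.39 ± 0.31 in the labelled double knockout, 9.69 ± 0.15 in the NEMO knockout and 9.67 ± 0.24 in wild type. Neither was called, with differences of 0.25 and 0.01 for the NEMO knockout from wild type.

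In the ISG15 pathway, which attaches the ubiquitin-like protein ISG15 to other proteins, Usp18 had the largest difference of all members from wild type. Usp18 removes ISG15 from its targets and dampens signalling at the type I receptor. It measured 8.90, 9.63 and 8.95 in the labelled double knockout, 9.82, 9.38 and 9.61 in the NEMO knockout and 8.67, 7.78 and 8.34 in wild type. Both knockouts lay above every wild type array, and the knockouts overlapped each other through replicate 2 of the labelled double knockout. The NEMO knockout differed from wild type by 1.34 ± 0.25 (adjusted p = 0.0107), and the labelled double knockout from the NEMO knockout by -0.45 ± 0.25 (adjusted p = 0.75) and from wild type by 0.90 ± 0.25 (adjusted p = 0.0563). Herc6, an ISG15 ligase in mice, averaged 8.13 ± 0.25 in the labelled double knockout, 8.44 ± 0.13 in the NEMO knockout and 8.22 ± 0.11 in wild type, and was not called (0.22 for the NEMO knockout from wild type).

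The Ifit proteins bind viral RNA in the cytoplasm, and 1 of 3 was called. Ifit2 measured 6.62, 7.04 and 6.81 in the labelled double knockout, 6.79, 7.07 and 7.13 in the NEMO knockout and 6.33, 6.34 and 6.01 in wild type. Both knockouts lay above wild type and overlapped each other. The NEMO knockout differed from wild type by 0.77 ± 0.14 (adjusted p = 0.00815) and the labelled double knockout from wild type by 0.60 ± 0.14 (adjusted p = 0.0243), while the knockouts differed by -0.17 ± 0.14 (adjusted p = 0.849).

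Ifit3 and Ifit1 were marked by a wide spread among wild type arrays. Ifit3 measured 7.80, 8.43 and 8.13 in the labelled double knockout, 8.43, 8.40 and 8.69 in the NEMO knockout and 8.39, 7.45 and 7.93 in wild type. Wild type replicate 1 lay just below the lowest NEMO knockout array, inside the spread of the labelled double knockout, and wild type replicate 2 was the lowest array. The difference of the NEMO knockout from wild type was 0.59 ± 0.23 (adjusted p = 0.18). Ifit1 measured 7.04, 7.57 and 7.21 in the labelled double knockout, 7.89, 7.93 and 7.77 in the NEMO knockout and 8.29, 7.12 and 7.61 in wild type. Its highest value was wild type replicate 1, its wild type range of 1.17 was the widest of any member within a group, and only the labelled double knockout and the NEMO knockout did not overlap (-0.59 ± 0.25, adjusted p = 0.654).

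Active enzymes of the oligoadenylate synthetase family make the messenger that activates RNase L. The 5 genes here were grouped by family, and enzyme activity was not measured. Of these, 3 were called higher in the NEMO knockout, with a median difference of 0.62 over the family. Oasl2 measured 8.05, 8.33 and 8.25 in the labelled double knockout, 8.55, 8.64 and 8.72 in the NEMO knockout and 7.29, 7.77 and 7.59 in wild type. The 3 groups did not overlap, and the differences were 1.09 ± 0.12 (adjusted p = 0.001) for the NEMO knockout from wild type, -0.43 ± 0.12 (adjusted p = 0.372) for the labelled double knockout from the NEMO knockout and 0.66 ± 0.12 (adjusted p = 0.00986) for the labelled double knockout from wild type. Oasl1, which in mice restrains production of the Irf7 protein, measured 8.30, 8.42 and 8.26 in the labelled double knockout, 8.44, 8.85 and 8.53 in the NEMO knockout and 7.96, 7.76 and 7.28 in wild type. Its groups were ordered in the same way without overlap, by 0.94 ± 0.17 (adjusted p = 0.00865) between the NEMO knockout and wild type and -0.28 ± 0.17 (adjusted p = 0.767) between the knockouts.

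Oas2 had the smallest difference between the knockouts of the 35 members. It measured 7.79, 7.75 and 7.96 in the labelled double knockout, 7.74, 8.01 and 7.93 in the NEMO knockout and 7.24, 7.28 and 7.29 in wild type. The wild type arrays lay close together and below all knockout arrays, which overlapped. The NEMO knockout was higher than wild type by 0.62 ± 0.09 (adjusted p = 0.00241) and the labelled double knockout by 0.56 ± 0.09 (adjusted p = 0.00341), while the knockouts differed by -0.06 ± 0.09 (adjusted p = 0.933).

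Oas1a measured 6.88, 6.53 and 7.04 in the labelled double knockout, 7.20, 7.36 and 7.47 in the NEMO knockout and 6.77, 7.0 and 7.24 in wild type. Every labelled double knockout value lay below every NEMO knockout value, and wild type overlapped both knockouts. The labelled double knockout differed from the NEMO knockout by -0.53 ± 0.15 (adjusted p = 0.369), and the NEMO knockout from wild type by 0.34 ± 0.15 (adjusted p = 0.247). Oas3 averaged 6.26 ± 0.08 in the labelled double knockout, 6.35 ± 0.09 in the NEMO knockout and 6.09 ± 0.20 in wild type and was not called in any comparison.

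Among sensors of RNA and DNA, 2 of 4 were called. Zbp1, a sensor of left-handed nucleic acid that can trigger necroptosis and apoptosis, measured 7.74, 7.67 and 8.02 in the labelled double knockout, 8.25, 8.57 and 8.75 in the NEMO knockout and 7.53, 7.17 and 7.29 in wild type. The 3 groups did not overlap. The NEMO knockout exceeded wild type by 1.19 ± 0.15 (adjusted p = 0.00134), and the labelled double knockout differed from the NEMO knockout by -0.71 ± 0.15 (adjusted p = 0.13), among the larger differences between the knockouts. The labelled double knockout differed from wild type by 0.48 ± 0.15 (adjusted p = 0.079).

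Ifih1, also known as MDA5, which recognises long double-stranded RNA, measured 8.96, 9.41 and 9.14 in the labelled double knockout, 9.51, 9.49 and 9.62 in the NEMO knockout and 9.11, 8.87 and 9.08 in wild type. The NEMO knockout lay above both other groups, which overlapped. It differed from wild type by 0.52 ± 0.12 (adjusted p = 0.025), a call lost in 5 of 18 alternatives, each leaving out 1 array, and the labelled double knockout differed from it by -0.37 ± 0.12 (adjusted p = 0.437). Eif2ak2, the RNA-activated kinase PKR, averaged 7.44 ± 0.15 in the labelled double knockout, 7.81 ± 0.17 in the NEMO knockout and 7.59 ± 0.10 in wild type, and Dhx58, a helicase that assists Ifih1, averaged 7.51 ± 0.14 in the labelled double knockout, 7.70 ± 0.04 in the NEMO knockout and 7.53 ± 0.26 in wild type. Neither was called, and the values of Eif2ak2 in the labelled double knockout lay below those in the NEMO knockout on every array.

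**Figure D3:**
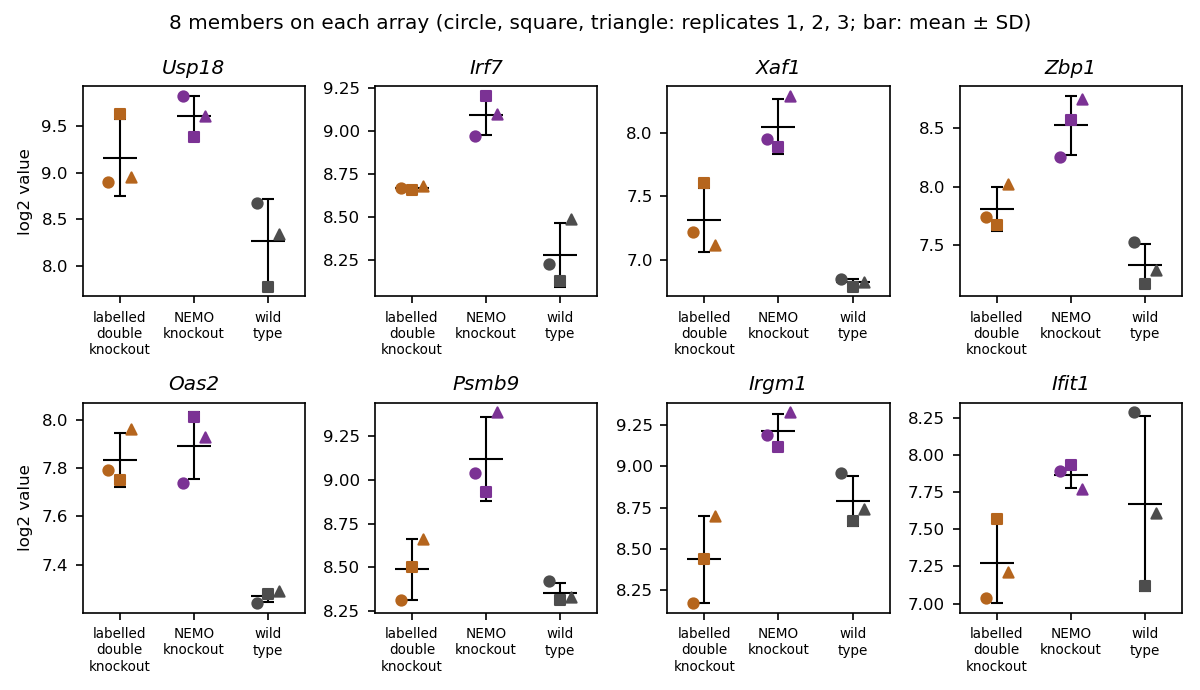
Log2 values of 8 members on each array (circle, square and triangle for replicates 1, 2 and 3), with group means and SDs as bars, on a separate axis for each gene. Irf7, Xaf1 and Zbp1 step down without overlap from the NEMO knockout through the labelled double knockout to wild type, Oas2 is high in both knockouts, Irgm1 is lowest in the labelled double knockout, and Ifit1 ranges over 1.17 within wild type.

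Of 7 other antiviral effectors, 2 were called higher in the NEMO knockout. Xaf1, a promoter of apoptosis named for its binding to the inhibitor XIAP, measured 7.22, 7.60 and 7.12 in the labelled double knockout, 7.95, 7.89 and 8.29 in the NEMO knockout and 6.85, 6.79 and 6.83 in wild type. The groups did not overlap, and the wild type arrays lay close together. The NEMO knockout exceeded wild type by 1.22 ± 0.14 (adjusted p = 9.62e-04), and the labelled double knockout differed from the NEMO knockout by -0.73 ± 0.14 (adjusted p = 0.108) and from wild type by 0.49 ± 0.14 (adjusted p = 0.0566).

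Rtp4, a membrane protein that regulates receptor transport, measured 7.83, 8.39 and 8.28 in the labelled double knockout, 8.51, 8.63 and 8.81 in the NEMO knockout and 8.23, 7.91 and 8.07 in wild type. The NEMO knockout lay above both other groups, and these overlapped. Its difference from wild type was 0.58 ± 0.15 (adjusted p = 0.0466), a call lost in 10 of 18 alternatives with adjusted p up to 0.162, and that between the knockouts was -0.49 ± 0.15 (adjusted p = 0.434). The dynamin-like GTPase Mx1 averaged 5.49 ± 0.12 in the labelled double knockout, 5.72 ± 0.19 in the NEMO knockout and 5.34 ± 0.13 in wild type, and its relative Mx2 averaged 5.58 ± 0.34 in the labelled double knockout, 5.97 ± 0.13 in the NEMO knockout and 5.97 ± 0.53 in wild type. Rsad2, known as viperin, averaged 7.70 ± 0.08 in the labelled double knockout, 7.93 ± 0.05 in the NEMO knockout and 7.58 ± 0.35 in wild type. The differences from wild type in the NEMO knockout were 0.39 for Mx1, 0.35 for Rsad2, 0.18 for Ifi35, 0.10 for the nucleotide kinase Cmpk2 and 0.00 for Mx2, and none of the 5 was called. The Mx2 means of the NEMO knockout and wild type were the same to 2 decimals, and centring each array on its median moved 2 members below 0 in that comparison.

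The ADP-ribosyltransferases Parp12 and Parp14 were called and Parp9 and its partner ubiquitin ligase Dtx3l were not. Parp12 measured 9.71, 10.28 and 10.10 in the labelled double knockout, 10.52, 10.46 and 10.60 in the NEMO knockout and 9.93, 9.82 and 9.91 in wild type. The NEMO knockout lay above both other groups, which overlapped through labelled double knockout replicate 1. It exceeded wild type by 0.64 ± 0.13 (adjusted p = 0.0138), and the labelled double knockout differed from it by -0.49 ± 0.13 (adjusted p = 0.266). Parp14 measured 8.18, 8.60 and 8.59 in the labelled double knockout, 8.88, 8.80 and 8.98 in the NEMO knockout and 8.27, 8.12 and 8.37 in wild type. The pattern was the same, with differences of 0.63 ± 0.12 (adjusted p = 0.0119) from wild type and -0.43 ± 0.12 (adjusted p = 0.345) between the knockouts, and the call of Parp12 was lost in 2 of 18 alternatives and that of Parp14 in 1.

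Dtx3l averaged 9.20 ± 0.06 in the labelled double knockout, 9.49 ± 0.13 in the NEMO knockout and 9.31 ± 0.02 in wild type, and its groups did not overlap: the NEMO knockout was highest and the labelled double knockout was lowest. The differences were small, at 0.17 ± 0.07 (adjusted p = 0.228) for the NEMO knockout from wild type and -0.28 ± 0.07 (adjusted p = 0.298) for the labelled double knockout from the NEMO knockout. Parp9 averaged 8.38 ± 0.14 in the labelled double knockout, 8.66 ± 0.07 in the NEMO knockout and 8.50 ± 0.08 in wild type, with differences of 0.16 and -0.27 in these comparisons.

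The interferon-inducible GTPases, which attack the vacuoles of intracellular pathogens, had a median difference between the knockouts of -0.51 over 4 genes. It was the largest among the groups with at least 3 members, and the 2 immunoproteasome subunits had a median of -0.55. The guanylate-binding protein gene Gbp3 measured 6.87, 6.98 and 7.07 in the labelled double knockout, 7.21, 7.29 and 7.78 in the NEMO knockout and 6.39, 6.33 and 6.45 in wild type. The groups did not overlap, and NEMO knockout replicate 3 was the highest array by a wide margin. The NEMO knockout exceeded wild type by 1.04 ± 0.13 (adjusted p = 0.00182), and the labelled double knockout differed from the NEMO knockout by -0.45 ± 0.13 (adjusted p = 0.397) and from wild type by 0.59 ± 0.13 (adjusted p = 0.0255). Gbp7 measured 8.01, 8.33 and 8.50 in the labelled double knockout, 8.77, 8.71 and 8.96 in the NEMO knockout and 7.98, 7.76 and 7.97 in wild type. Its groups did not overlap either, with differences of 0.91 ± 0.13 (adjusted p = 0.00267), -0.53 ± 0.13 (adjusted p = 0.237) and 0.38 ± 0.13 (adjusted p = 0.112) in the same 3 comparisons.

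Irgm1, an immunity-related GTPase that guards against self-attack by its relatives, measured 8.17, 8.44 and 8.70 in the labelled double knockout, 9.19, 9.12 and 9.33 in the NEMO knockout and 8.96, 8.67 and 8.74 in wild type. The NEMO knockout lay above all other arrays, and labelled double knockout replicates 1 and 2 lay below every wild type array. The labelled double knockout differed from the NEMO knockout by -0.78 ± 0.13 (adjusted p = 0.0767), the largest difference between knockouts among the 35 members, and the NEMO knockout from wild type by 0.42 ± 0.13 (adjusted p = 0.0983). Iigp1, another GTPase of this family, measured 10.02, 10.14 and 10.04 in the labelled double knockout, 10.58, 10.56 and 10.54 in the NEMO knockout and 10.39, 9.92 and 10.57 in wild type. The NEMO knockout arrays lay close together and above the labelled double knockout arrays, while wild type overlapped both knockouts. Iigp1 differed by -0.49 ± 0.14 (adjusted p = 0.358) between the knockouts.

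Both immunoproteasome subunits were called. Psmb8 and Psmb9 encode catalytic subunits that replace the constitutive ones and favour peptides for antigen presentation. Psmb9 measured 8.31, 8.50 and 8.66 in the labelled double knockout, 9.04, 8.93 and 9.39 in the NEMO knockout and 8.42, 8.31 and 8.33 in wild type. The NEMO knockout lay above both other groups, which overlapped through labelled double knockout replicate 1. It exceeded wild type by 0.77 ± 0.13 (adjusted p = 0.00575), and the labelled double knockout differed from it by -0.63 ± 0.13 (adjusted p = 0.125) and from wild type by 0.13 ± 0.13 (adjusted p = 0.647). Psmb8 measured 7.66, 7.49 and 7.77 in the labelled double knockout, 7.93, 8.00 and 8.36 in the NEMO knockout and 7.45, 7.58 and 7.48 in wild type. Its NEMO knockout arrays were again above all others, with differences of 0.60 ± 0.12 (adjusted p = 0.0141), -0.46 ± 0.12 (adjusted p = 0.276) and 0.14 ± 0.12 (adjusted p = 0.598) in the same 3 comparisons, the first of them not called in 2 of 18 alternatives.

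The 5 genes known only from jointly annotated probe sets cannot be assigned a value of their own, because each signal may come from any gene named for it. The probe set of Irgm2 and Igtp, both immunity-related GTPases, measured 7.65, 8.31 and 8.76 in the labelled double knockout, 10.05, 9.47 and 10.07 in the NEMO knockout and 8.73, 8.48 and 8.61 in wild type. All NEMO knockout values lay above all others, and the other groups overlapped. It was called higher in the NEMO knockout than in wild type (1.26 ± 0.26, adjusted p = 0.017) and missed the threshold between the knockouts (-1.62 ± 0.26, adjusted p = 0.0536), where the difference exceeded that of any of the 35 members in size. Between the knockouts it was called in 2 of 17 alternatives, over which adjusted p lay between 0.0411 and 0.273 (limma). The probe set of Olfr56 and Ifi47 measured 5.90, 6.25 and 6.36 in the labelled double knockout, 6.89, 6.96 and 7.09 in the NEMO knockout and 6.60, 6.44 and 6.47 in wild type. Here the labelled double knockout lay below wild type and wild type below the NEMO knockout, without overlap. It was called lower in the labelled double knockout than in the NEMO knockout (-0.81 ± 0.12, adjusted p = 0.0348), a call kept in 4 of 17 alternatives with adjusted p between 0.0307 and 0.167, and higher in the NEMO knockout than in wild type (0.48 ± 0.12, adjusted p = 0.0379).

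The probe set shared by 6 guanylate-binding protein genes, Gbp6 among them, measured 8.23, 8.57 and 8.84 in the labelled double knockout, 9.45, 9.33 and 9.73 in the NEMO knockout and 8.84, 8.17 and 8.81 in wild type. The NEMO knockout lay above the labelled double knockout and wild type, which overlapped. The NEMO knockout differed from wild type by 0.90 ± 0.21 (adjusted p = 0.0286), and the labelled double knockout differed from the NEMO knockout by -0.96 ± 0.21 (adjusted p = 0.167). The probe set of Gbp2 and Gbp2b measured 7.31, 7.31 and 7.59 in the labelled double knockout, 7.49, 7.44 and 8.00 in the NEMO knockout and 6.40, 6.62 and 6.92 in wild type. Both knockouts lay above wild type and overlapped each other, and the differences from wild type were 1.0 ± 0.17 (adjusted p = 0.00763) in the NEMO knockout and 0.75 ± 0.17 (adjusted p = 0.0256) in the labelled double knockout. The probe set of Isg15 and Gm9706 averaged 5.96 ± 0.05 in the labelled double knockout, 6.14 ± 0.19 in the NEMO knockout and 6.15 ± 0.20 in wild type and was not called in any comparison. Under 17 alternatives, added after the data were seen, the call in the NEMO knockout against wild type was kept in 17 by the probe set of Gbp2, in 13 by that of Igtp, in 12 by that of Gbp6 and in 7 by that of Ifi47. The probe set of Gbp2 kept its call in the labelled double knockout against wild type in 12.

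Arrays of a group differed in the number of members for which they were highest or lowest. The mean log2 value over the 35 members was 7.83, 8.08 and 8.06 in the labelled double knockout, 8.31, 8.39 and 8.46 in the NEMO knockout and 7.99, 7.71 and 7.86 in wild type. The labelled double knockout overlapped wild type in this mean, and the NEMO knockout overlapped neither. Replicate 1 of the labelled double knockout was the lowest of its group for 27 of 35 members, and replicates 2 and 3 were the highest for 17 each. Wild type replicate 1 was the highest of its group for 22 members and wild type replicate 2 the lowest for 26. NEMO knockout replicate 3 was the highest of its group for 20 members and NEMO knockout replicate 1 the lowest for 19. The members' range within a group had a median of 0.34 in the labelled double knockout (0.17 over all probe sets), 0.25 in the NEMO knockout (0.21) and 0.32 in wild type (0.18). A NEMO knockout array was the highest of the 9 for 30 of 35 members: replicate 1 for 2, replicate 2 for 9 and replicate 3 for 19. The matching share over all probe sets was not counted.

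The wider interferon pathway was described from lists of other genes. Among 58 other interferon-stimulated genes measured, 25 were called higher in the NEMO knockout than in wild type and 0 lower. Over all probe sets 5.66% were called higher and 2.02% lower there, and the median difference of the 58 genes was 0.41. The largest called differences were those of Ifi44l (2.10 ± 0.46), the guanylate-binding protein gene Gbp4 (1.25 ± 0.18), Ifi27l2b (1.16 ± 0.13) and Ifi27l2a (1.12 ± 0.09). Ifi44l was uneven within the labelled double knockout, at 7.34, 5.40 and 7.49, where replicate 2 lay inside the wild type range of 5.36 to 5.82. Between the labelled double knockout and the NEMO knockout none of the 58 was called, and 50 of 58 (86.2%) were below 0, against 48.6% of all probe sets. At an unadjusted p under 0.05 (limma) 22 were lower and 0 higher, against 3.99% and 3.47% of all probe sets. The median was -0.20. Against wild type the labelled double knockout had 10 called higher and 0 lower, against 5.81% and 3.51% of all probe sets, with a median of 0.12. Ifi27l2a and Ifi27l2b were again among the largest, at 1.02 ± 0.09 and 0.99 ± 0.13.

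The interferon genes themselves showed no call. Of 21 listed, 16 were measured, and 0 were called in any of the 3 comparisons. Over all probe sets 5.66% were called higher and 2.02% lower in the NEMO knockout than in wild type. The shares were 0.0864% and 0.111% between the knockouts, and 5.81% and 3.51% for the labelled double knockout against wild type. For a list of 16 genes, 0 calls is near these shares. At an unadjusted p under 0.05 (limma) 1 was lower in the labelled double knockout than in wild type, against 10.8% of all probe sets. None differed otherwise. The medians were -0.07 in the NEMO knockout against wild type and -0.02 between the knockouts. Ifng, encoding interferon gamma, averaged 5.53 ± 0.02 in the labelled double knockout, 5.54 ± 0.03 in the NEMO knockout and 5.54 ± 0.03 in wild type, and Ifnb1, encoding interferon beta, averaged 4.28 ± 0.08 in the labelled double knockout, 4.18 ± 0.15 in the NEMO knockout and 4.23 ± 0.00 in wild type. Neither mean differed between groups by more than the spread among replicates, and probes of the near-identical Ifna genes may share signal. The mean over the 16 genes was 5.23 to 5.49 per array, below the array medians of 6.47 to 6.58. Levels were uneven, with group means from 2.97 to 3.10 for Ifna11 and from 8.08 to 8.22 for Ifnl2. Where signal is low a change may go unseen, so the missing calls do not show that interferon transcripts were unchanged.

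Receptors and signalling genes moved in part. Of 14 measured, 5 were called higher in the NEMO knockout than in wild type and 0 lower, against 5.66% and 2.02% of all probe sets. Apart from Usp18, they were Il10rb (0.80 ± 0.11), a subunit of the lambda interferon receptor, the gamma receptor subunits Ifngr1 (0.57 ± 0.12) and Ifngr2 (0.50 ± 0.11), and the feedback inhibitor Socs3 (0.47 ± 0.10). Between the knockouts 0 were called, and the median was -0.16. At an unadjusted p under 0.05 (limma) 6 were lower and 0 higher, against 3.99% and 3.47% of all probe sets. In the labelled double knockout against wild type Il10rb (0.64 ± 0.11) and Ifngr1 (0.59 ± 0.12) were called higher and 0 genes lower. The shares of all probe sets were 5.81% and 3.51%.

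Among 18 measured genes of nucleic acid sensing and interferon induction, 4 were called higher in the NEMO knockout than in wild type and 0 lower, against 5.66% and 2.02% of all probe sets. The 4 genes were the DNA sensor Aim2 (0.94 ± 0.11), the adaptor Sting1 (0.93 ± 0.13), the transcription factor Irf8 (0.90 ± 0.10) and the endosomal DNA receptor Tlr9 (0.87 ± 0.12). None of the 18 was called between the knockouts, where the median was -0.11. At an unadjusted p under 0.05 (limma) 1 was lower and 0 higher, against 3.99% and 3.47% of all probe sets. In the labelled double knockout 6 were called higher than in wild type, against 5.81% of all probe sets, with the endosomal RNA receptor Tlr7 first (1.17 ± 0.23). Another 2 were called lower, against 3.51%, the adaptor Mavs (-0.42 ± 0.10) and the factor Irf3 (-0.30 ± 0.07).

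Many markers of macrophages and stellate cells were also called higher in both knockouts than in wild type. Over all probe sets 5.66% were called higher and 2.02% lower in the NEMO knockout than in wild type. For the labelled double knockout these shares were 5.81% and 3.51%. Of 12 monocyte and infiltrating macrophage markers, 9 were called higher and 0 lower in the NEMO knockout, with a median of 1.19, and the log2 of their summed linear signal was 11.99 to 12.27 in the labelled double knockout, 12.03 to 12.22 in the NEMO knockout and 10.55 to 10.79 in wild type. Of 12 Kupffer cell markers, 8 were called higher and 1 lower, with Cd163 as the 1 lower (-1.85 ± 0.20), a median of 0.62 and sums of 13.46 to 13.55 in the labelled double knockout, 13.41 to 13.57 in the NEMO knockout and 12.75 to 12.86 in wild type. In the labelled double knockout against wild type, 9 of the macrophage markers were called higher and 0 lower, and 8 of the Kupffer cell markers higher and 1 lower. Stellate cell markers had 9 of 12 called higher in the NEMO knockout and 0 lower (median 1.03), and in the labelled double knockout 9 higher and 1, Colec11, lower than in wild type (median 0.88). Of 13 T and NK cell markers 3, Cd3g, Ncr1 and Nkg7, were called higher in the NEMO knockout than in wild type, and of 12 neutrophil markers 2, Retnlg and Csf3r, with 0 lower in either list. In the labelled double knockout against wild type, 0 T and NK cell markers were called and 1 neutrophil marker, Csf3r, and 2 dendritic cell markers, Bst2 and Flt3, were called higher. Dendritic cell markers had 6 of 11 called higher in the NEMO knockout than in wild type and 0 lower (median 0.38), of which Bst2 also stands in the list of other interferon-stimulated genes. Hepatocyte markers had 0 of 10 called in either direction, with sums of 16.59 to 16.67 in the labelled double knockout, 16.59 to 16.62 in the NEMO knockout and 16.62 to 16.64 in wild type. At an unadjusted p under 0.05 (limma) 0 hepatocyte markers differed between the NEMO knockout and wild type, against 10.5% of all probe sets higher and 9.78% lower. In the labelled double knockout 1 hepatocyte marker was higher than in wild type, against 10.2% of all probe sets. The part of any of these cells in the higher interferon-stimulated genes of the NEMO knockout was not tested.

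Between the knockouts the macrophage and Kupffer cell sums overlapped, and 0 markers of either list were called. At an unadjusted p under 0.05 (limma) 1 macrophage marker was higher and 3 lower, and 2 Kupffer cell markers were higher. Over all probe sets 0.0864% were called higher and 0.111% lower between the knockouts, and 3.47% were higher and 3.99% lower unadjusted. With so few calls over all probe sets, 0 calls in a short list do not show that the cells were alike. T and NK cell markers had sums of 9.60 to 9.82 in the labelled double knockout, 9.86 to 10.19 in the NEMO knockout and 9.64 on each wild type array. None of these 13 markers was called between the knockouts (median -0.20), with 4 lower at an unadjusted p under 0.05 (limma). Neutrophil marker sums were 9.09 to 9.20 in the labelled double knockout, 9.23 to 9.73 in the NEMO knockout and 8.97 to 9.05 in wild type, with 0 of 12 called between the knockouts and 3 lower unadjusted. The dendritic cell sums, 10.63 to 11.30 in the labelled double knockout, 11.63 to 11.87 in the NEMO knockout and 10.22 to 10.32 in wild type, followed Ly6d, which measured 7.35, 10.27 and 7.61 in the labelled double knockout, 10.79, 11.15 and 11.00 in the NEMO knockout and 6.24, 6.98 and 6.07 in wild type and is expressed in other cell types too. B cell and endothelial cell markers had 0 called between the knockouts, and at an unadjusted p under 0.05 (limma) 1 endothelial marker was higher. Of 12 stellate cell markers 1, Colec11, was called lower in the labelled double knockout than in the NEMO knockout (-1.08 ± 0.11). The part of any of these cells in the lower interferon-stimulated genes of the labelled double knockout was not tested.

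**Figure D4:**
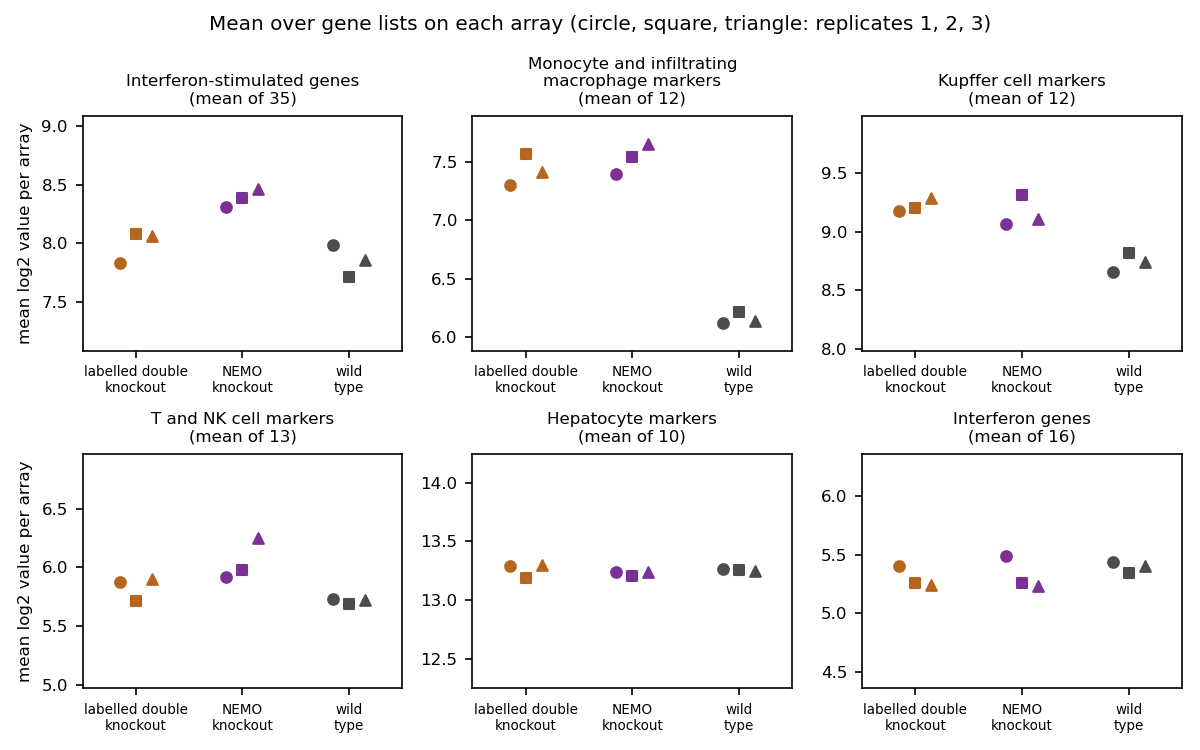
Mean log2 value over 6 gene lists on each array (circle, square and triangle for replicates 1, 2 and 3), with axes of equal span. The interferon-stimulated genes are highest in the NEMO knockout and overlap between the labelled double knockout and wild type, the monocyte and macrophage and the Kupffer cell markers are high in both knockouts, the T and NK cell markers are highest in the NEMO knockout (5.92 to 6.25) and overlap between the labelled double knockout (5.71 to 5.90) and wild type (5.69 to 5.73), and the hepatocyte markers and interferon genes overlap between groups.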

How the data were processed

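Total RNA of whole liver was hybridised to 9 single-channel Affymetrix gene arrays, 3 per genotype. The deposited table holds log2 values per probe set, made by the authors with RMA, per the submitters' processing notes; the log base was inferred from the values, and no source used here gives a version or a genome build. RMA makes the distributions of the arrays alike, so a shift of most genes at once would be reduced.

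Of 35556 probe sets, 6617 with an identifier below the lowest one in the platform annotation were taken as controls and left out, leaving 28939 tested. The platform annotation gave 21789 of these 1 gene symbol, 1621 several and 5529 none, and 21698 of the first matched the RefSeq gene table. Groups came from the labels. All 9 arrays were fitted with 1 mean per group in limma 3.58.1 (R 4.3.3; lmFit and eBayes without trend), with Benjamini-Hochberg adjustment over the tested probe sets and a threshold of 0.05. The fit was tested on simulated data. No score over the members was tested.

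The members and gene lists were chosen with earlier results of these data known. Values of every array are given for the 16 members called in the NEMO knockout against wild type and the 6 not called members with the largest difference in it or between the knockouts; other genes of a list are named if among its 4 largest called differences. Others named, such as Ifng, Socs3, Ly6d, Cd163, Mavs and Irf3, were named after their values were seen. Promoter sequences are RefSeq's on GRCm38.p6, and 10 members had none here. Same-numbered replicates of different groups had deviations correlated at -0.116 to 0.391, and differently numbered ones at -0.301 to 0.183. The labels do not state that the numbers pair mice, so the replicate block was fitted only as an alternative. No 2 arrays held identical values. Alternatives were other scalings, a filter on dim probe sets, control probe sets kept, only the 2 groups compared, array weights, a trend, a replicate block, averaging probe sets by symbol and leaving out each array.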

Additional observations from a re-analysis of the deposited data

How the results depend on the processing

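No result in the 3 comparisons changed direction among members that were called. The NEMO knockout differed from wild type in 2222 calls over all probe sets, and in 1382 to 2335 when 1 array was left out, lowest without replicate 3 of the NEMO knockout. Members called higher there numbered 13 to 17 over 18 alternatives and their median was 0.40 to 0.56. The calls of Ifih1, Parp12, Parp14, Rtp4 and Psmb8 were each lost in at least 1 alternative, with adjusted p up to 0.0963, 0.0593, 0.0535, 0.162 and 0.053. Between the knockouts the 57 calls over all probe sets became 10 to 78 over 17 alternatives: 78 with array weights, 31 with each array centred on its median, 28 with control probe sets kept, 23 with only the 2 groups fitted, 18 with the replicate block and 10 to 44 when 1 array was left out, and the cause was not tested. No member was called there in any of 18 alternatives, the lowest adjusted p being 0.0572 for Iigp1 without wild type replicate 2, and the median was -0.44 to -0.29, nearest 0 without replicate 1 of the labelled double knockout. Members lower at an unadjusted p under 0.05 numbered 20 to 23, and 35 of 35 were below 0 in each of the 17 alternatives for which this was counted, both counts added after the data were seen. The labelled double knockout differed from wild type in 2696 calls, and in 1601 to 2720 when 1 array was left out. Members called higher there numbered 6, 2 to 8 over the 18 alternatives and 2 to 7 when 1 array was left out (lowest without replicate 2 or replicate 3 of the labelled double knockout), and members called lower 0 to 1, the 1 being Iigp1 without wild type replicate 2. Centring each array on its median moved the median of all probe sets to -0.10 in the NEMO knockout against wild type and to -0.09 in the labelled double knockout against wild type; the share of calls that were higher became 52.7% and 44.1%, against 73.7% and 62.3% with the values as deposited, and members called higher became 15 and 4. The replicate block otherwise left 15 members called higher in the NEMO knockout against wild type. The number of arrays, 3 per group, limits the precision.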
